A study of Mus musculus with 5 samples.

Results

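The Myog cells of the embryonic mouse limb were 1743 cells of 2 droplet-based single-cell RNA libraries, 1 from forelimb and 1 from hindlimb. A barcode was counted when it had 100 to 9000 detected genes, at most 10% mitochondrial UMIs (unique molecular identifiers, the tags that count RNA molecules), at least 1 UMI of Myog, at least 1 UMI of Myod1, Mymk or Mymx, and fewer than 2 UMIs of Ckm. These cells were taken from 49801 limb barcodes that passed the limits on genes and mitochondrial UMIs, and the series held 84440 barcodes in all. The rule used measured counts, so the levels of its own genes are given as a description with no test. The forelimb library gave 1003 Myog cells of 25865 filtered cells, or 3.88% (95% exact binomial interval 3.65 to 4.12). The hindlimb library gave 740 of 23936, or 3.09% (2.88 to 3.32). The comparison set was 1256 Pax7 progenitors from the same libraries, 678 in forelimb and 578 in hindlimb, which had a UMI of Pax7, a UMI of Myf5, Msc or Fgfr4, and none of Myog.

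Both limb libraries were labelled embryonic day 15 and C57BL/6N, and by the study's methods came from male embryos, while the study's methods name another C57BL/6 substrain for all mice and its text gives the limb age in more than 1 form. No transgene, mutant allele or treatment is named for any group. The methods do not say how embryos were split or pooled over the 2 limb libraries, so the libraries may share embryos. With the library as a block, a p-value below rests on how far differences between sets varied from the forelimb to the hindlimb library. The fits had 2 or 1 residual degrees of freedom, so this spread was largely pooled over genes. A small p-value or standard error is thus no measure of how closely the 2 libraries matched for that gene. Without the block a p-value also takes in the difference between the libraries. No p-value measures the spread between embryos. The other 3 libraries of the series, from penis at postnatal day 6, held 1, 2 and 1 cells with a Myog UMI and 0 Myog cells of 6806, 7107 and 5720 cells that passed stricter limits (500 to 6000 genes and at most 5% mitochondrial UMIs). A count of 0, with 3 counts as its limit, allows shares of up to 0.0441%, 0.0422% and 0.0524%. Intervals and such limits cover counting error only.

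Skeletal muscle of the limb forms from migrating precursor cells that express Pax3 and later Pax7. Progenitors that leave the pool express Myod1 and then Myog, which encodes myogenin, a basic helix-loop-helix transcription factor that binds E-box sequences and drives the muscle genes. Myoblasts then stop dividing and fuse into multinucleated fibres through 2 membrane proteins, myomaker (Mymk) and myomixer (Mymx), after which sarcomeres, junctions with nerves and the calcium release machinery are built.

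The levels of the rule's own genes follow from the choice of cells. Myog stood at 1388 counts per 1000000 UMIs of the set (CPM) in forelimb Myog cells and 1288 CPM in hindlimb Myog cells, from 14174 and 10474 UMIs. Myod1, the factor that commits cells to muscle, stood at 249 and 262 CPM, against 84.0 and 83.6 CPM in the progenitors. Mymk was at 131 and 144 CPM and Mymx at 431 and 444 CPM. In the progenitors Mymk was at 0.150 and 1.20 CPM and Mymx at 2.11 and 1.35 CPM. Pax7 was at 24.2 and 33.7 CPM in Myog cells and at 210 and 208 CPM in progenitors. The paired values of the 2 libraries lay close together beside the differences between sets, and all 10 muscle markers were detected in the Myog cells of both. Of the 10, Des, Tnnt1, Vgll2, Rbm24 and Actc1 were not used by the rule. Rbm24 was at 470 and 531 CPM in Myog cells and Actc1 at 2755 and 2881 CPM. Endothelial cells, which should lack both, held Rbm24 at 14.2 and 13.98 CPM and Actc1 at 212 and 65.9 CPM when taken whether or not they had muscle RNA. The endothelial reference used for the levels below leaves out cells with a UMI of Myog, Pax7 or Ckm, and held Rbm24 at 4.10 and 4.70 CPM and Actc1 at 15.04 and 7.83 CPM. The sums of all 10, rule genes included, were 6461 and 6734 CPM in Myog cells and 1062 and 1135 CPM in progenitors.

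Endothelial cells were shallower than Myog cells and progenitors, and progenitors had more genes detected than Myog cells. Myog cells had a median of 8705 UMIs in forelimb and 10000 in hindlimb, progenitors 9009 and 10372, and endothelial reference cells 6569 and 8411. Median genes detected were 2801 and 3082 in Myog cells and 3135 and 3452.5 in progenitors. Of the endothelial cells, taken whether or not they held muscle RNA, 28 of 487 in forelimb (5.75%, 3.85 to 8.20) and 28 of 418 in hindlimb (6.70%, 4.50 to 9.54) had a Myog UMI, and 1.44% in each library (0.580 to 2.94 and 0.529 to 3.10) met the rule for Myog cells. The 3.88% of all filtered forelimb cells that met it lay outside that interval, and the 3.09% of hindlimb lay just inside its upper end. These are unlike measures, because all filtered cells include the muscle cells. The comparison does not tell how many members are background. Of the Myog cells, 62.1% in forelimb and 60% in hindlimb held 10 or more Myog UMIs. Scrublet, a doublet caller, marked 12.5% of forelimb and 9.32% of hindlimb Myog cells, against 3.57% and 2.54% of all filtered cells, and 10.2% and 8.13% of progenitors. It was given expected doublet rates of 0.226 and 0.207 as fractions of cells, well above the shares it called. Doublets may therefore remain in every set, also where Scrublet calls are left out. Markers of another cell type (at least 2 endothelial, white blood, keratinocyte or glial genes, or 3 chondrocyte genes) were in 12% and 13.4% of Myog cells and in 11.9% and 10.6% of progenitors. Summed over their lists, endothelial markers were at 77.6 and 52.9 CPM in Myog cells and 80.8 and 60.7 CPM in progenitors, and white blood markers at 87.5 and 56.5 CPM against 74.9 and 31.4 CPM. Mesenchyme markers were at 2012 and 1405 CPM against 1697 and 1308 CPM, and red blood markers at 8441 and 5749 CPM against 6168 and 6494 CPM. Chondrocyte markers were at 178 and 145 CPM against 346 and 149.95 CPM, so the libraries differed there. The part of these other cell types in the results below was not tested beyond the alternatives that leave such cells out. The 2 limb libraries had 203 barcodes in common, and no barcode was a Myog cell in both.

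Within the set, the 3 partner genes of the rule were found together more often than alone. All of Myod1, Mymk and Mymx were detected in 432 forelimb cells (43.1%) and 360 hindlimb cells (48.6%). Myod1 was the only partner gene in 185 cells (18.4%) and 159 cells (21.5%), and these are the 344 cells with neither fusion gene. Mymx alone admitted 71 and 41 cells, and Mymk alone 13 and 11. After thinning each cell to 2000 UMIs, the expected share with a Mymx UMI was 49.1% and 47.4% in Myog cells and 0.170% and 0.306% in endothelial cells, and for Mymk 23.2% and 24.0% against 0.240% and 0.0668%. Without thinning, Mymx was in 76.4% and 74.1% of Myog cells and 0.459% and 1.08% of endothelial cells, or 2.26% and 2.15% of the endothelial cells taken whether or not they had muscle RNA. Pax7 was still detected in 155 forelimb (15.5%) and 151 hindlimb Myog cells (20.4%), and in 1.85% and 2.63% of the endothelial cells taken whether or not they had muscle RNA.

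Exactly 1 Myog UMI was found in 129 forelimb and 93 hindlimb members. Just outside, 988 forelimb and 717 hindlimb cells had Myog without any partner gene, at 158 and 132 CPM of Myog, with a median of 5439 and 6356 UMIs. The upper limit was set by Ckm, which encodes muscle creatine kinase: 52 forelimb and 26 hindlimb members had 1 Ckm UMI, and 35 and 20 cells met all other conditions but had at least 2. Myh3, the embryonic myosin heavy chain, was at 131 and 221 CPM in members without Ckm, at 873 and 681 CPM in members with 1 Ckm UMI and at 1760 and 2064 CPM in the cells just outside. Acta1, skeletal muscle actin, was at 90.6 and 95.9 CPM, then 465 and 594 CPM, then 2955 and 1377 CPM. Both genes stood in the same order in both libraries.

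The Myog count itself varied widely, with a median of 14 UMIs per cell in forelimb and 13 in hindlimb and a highest count of 77 and 69. Grouped by their Myog UMIs, the members differed in many other genes in the same order in both libraries, with no test because the grouping uses Myog and depth enters it. The 4 groups had 1, 2 to 4, 5 to 9 and 10 or more Myog UMIs and median depths from 7607 to 8951 UMIs in forelimb and from 9518 to 10581 UMIs in hindlimb. Pax7 went from 70.2 to 56.4, 24.4 and 9.28 CPM in forelimb and from 108 to 69.8, 23.4 and 12.04 CPM in hindlimb. Notch3, a receptor of the Notch pathway, went from 81.9 to 14.5 CPM and from 74.5 to 13.8 CPM between the lowest and the highest group. Both genes were lowest where Myog was highest.

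Other genes went the opposite way. Mymx went from 31.2 to 66.8, 181 and 626 CPM in forelimb and from 28.1 to 51.2, 188 and 670 CPM in hindlimb. Tnnt2, the cardiac-type troponin T that embryonic muscle also makes, went from 19.5 to 83.3, 317 and 1116 CPM and from 27.1 to 83.9, 305 and 1112 CPM. Rb1, the retinoblastoma protein that restrains entry into S phase, went from 78.8 to 431 CPM and from 85.1 to 510 CPM. Cdkn1a, the cyclin-dependent kinase inhibitor p21, was flat over the first 2 groups, at 39.8 and 46.9 CPM in forelimb and 43.5 and 38.9 CPM in hindlimb, and reached 275 and 305 CPM in the group with 10 or more Myog UMIs. Dll1, a Notch ligand, was at 8.58 and 2.90 CPM in the lowest group, at 40.3 and 32.6 CPM in the group with 5 to 9 and at 43.2 and 42.7 CPM in the top group. Myod1 was nearly level over the 3 upper groups, between 226 and 293 CPM in both libraries. Mki67, a marker of dividing cells, was highest in the group with 2 to 4 Myog UMIs, at 292 and 269 CPM, and lowest in the top group, at 117 and 97.1 CPM.

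**Figure D1:**
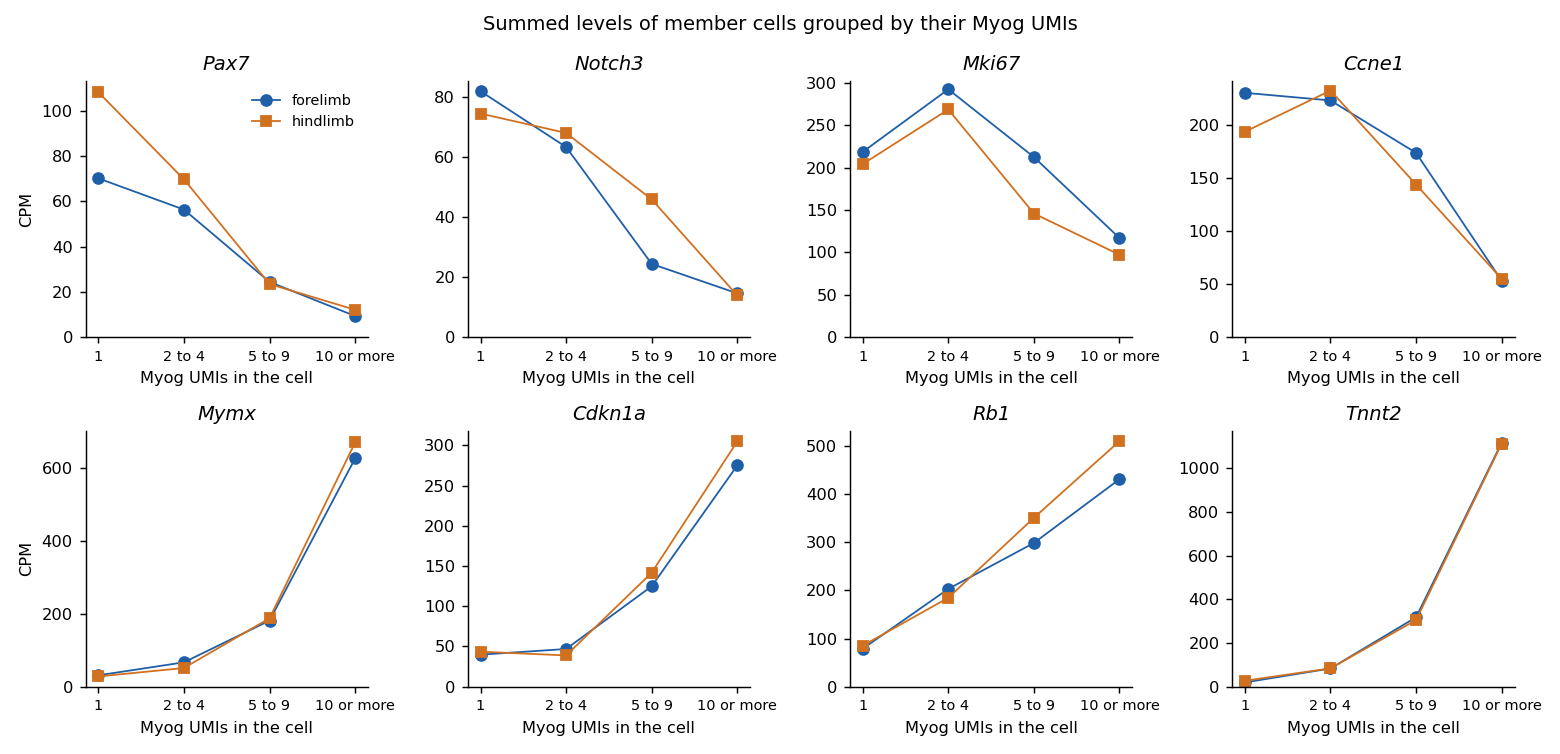
Levels of 8 genes (y axis, CPM, linear from 0) in Myog cells grouped by their Myog UMIs (x axis), with circles for the forelimb library and squares for the hindlimb library. Each point is the summed count of a group of 93 to 623 cells. Pax7 and Notch3 were lowest in cells with 10 or more Myog UMIs, where Mymx, Cdkn1a, Rb1 and Tnnt2 were highest.

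Fewer Myog cells than progenitors carried RNA of dividing cells. A UMI of Mki67 or Top2a, genes of the mitotic chromosome and of DNA untangling, was found in 469 of 1003 forelimb Myog cells (46.8%, 43.6 to 49.9) and 367 of 740 hindlimb cells (49.6%, 45.9 to 53.3). In progenitors the share was 73.5% and 75.8%. Thinned to 2000 UMIs, with 18 and 6 shallower Myog cells and 13 and 1 shallower progenitors left out, the shares were 30.5% and 27.9% in Myog cells and 51.6% in the progenitors of each library. Among the Myog cells, those with neither Mymk nor Mymx stood at 51.2% and 51.3% after thinning and those with either at 25.8% and 21.5%. Myog cells with a Pax7 UMI stood at 61.7% and 49.3%, and those without at 24.7% and 22.4%. Ckm cells stood at 9.66% and 9.24%, over the 33 and 19 that were deep enough, and at 31.4% (11 of 35) and 20% (4 of 20) over all UMIs. With 1 library a limb these shares have no replicate error. Over all UMIs the Myog cells with Pax7 stood at 78.1% in each library, so their order against the progenitors of hindlimb depended on thinning.

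**Figure D2:**
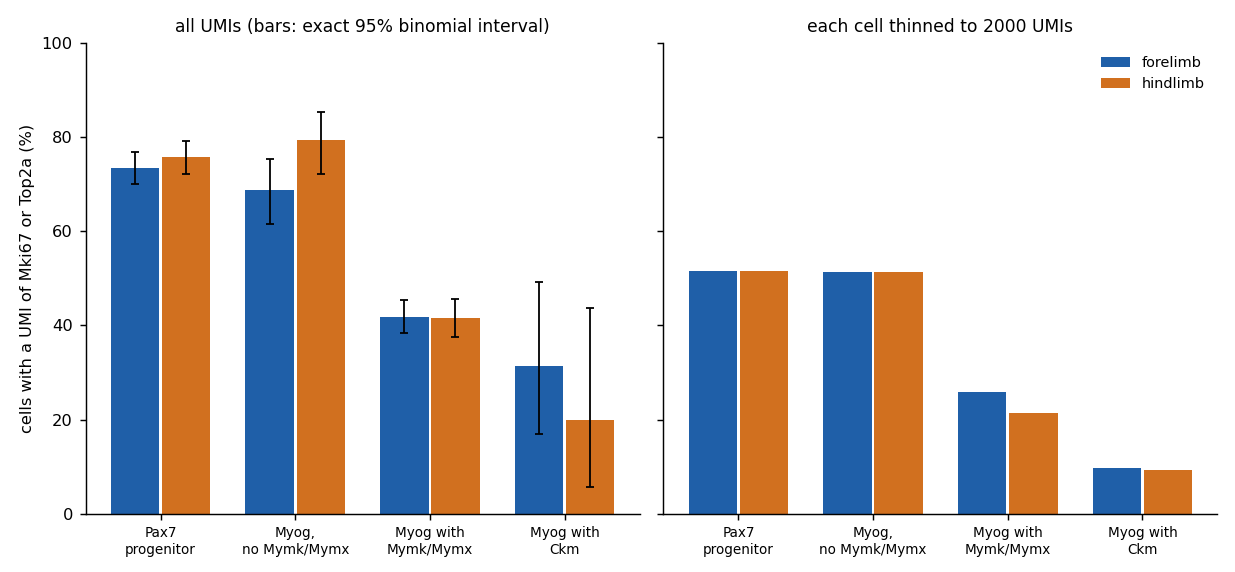
Share of cells with a UMI of Mki67 or Top2a (y axis, %) in 4 sets of muscle cells, with blue bars for forelimb and orange bars for hindlimb, over all UMIs on the left and after thinning to 2000 UMIs on the right. Error bars on the left are exact 95% binomial intervals. Myog cells with neither fusion gene stood near the progenitors, and those with Mymk or Mymx stood between them and the Ckm cells.

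The comparison of Myog cells with Pax7 progenitors asked which genes differ across the step from progenitor to differentiating myoblast. UMI counts were summed per library and set, and tested with edgeR's quasi-likelihood test with the library as a block and Benjamini-Hochberg adjustment, called at an adjusted p under 0.01 and a difference of 1 or more in log2, either way. Of 14258 genes tested, 858 were higher in Myog cells (6.02%) and 410 lower (2.88%). DESeq2 called 583 and 235 at the same limits. List counts under other alternatives below stand beside other all-gene counts of higher and lower genes. Without cells with a UMI of Mki67 or Top2a (dividing cells) these were 751 and 691 of 9634. They were 935 and 645 of 14230 with at least 2 Myog UMIs, and 949 and 611 of 13604 without Scrublet calls. Without cells with markers of another type they were 870 and 557 of 13379. After thinning they were 587 and 394 of 9855, and without the library block 674 and 296 of 14258. A difference between sums does not tell a change in every cell from a change in the share of cells that express a gene. The fit scales the sums with TMM, a normalization, and the printed CPM do not carry that scaling. A fold change can therefore differ from the ratio of the CPM, and calls near the limit can depend on it.

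**Figure D3:**
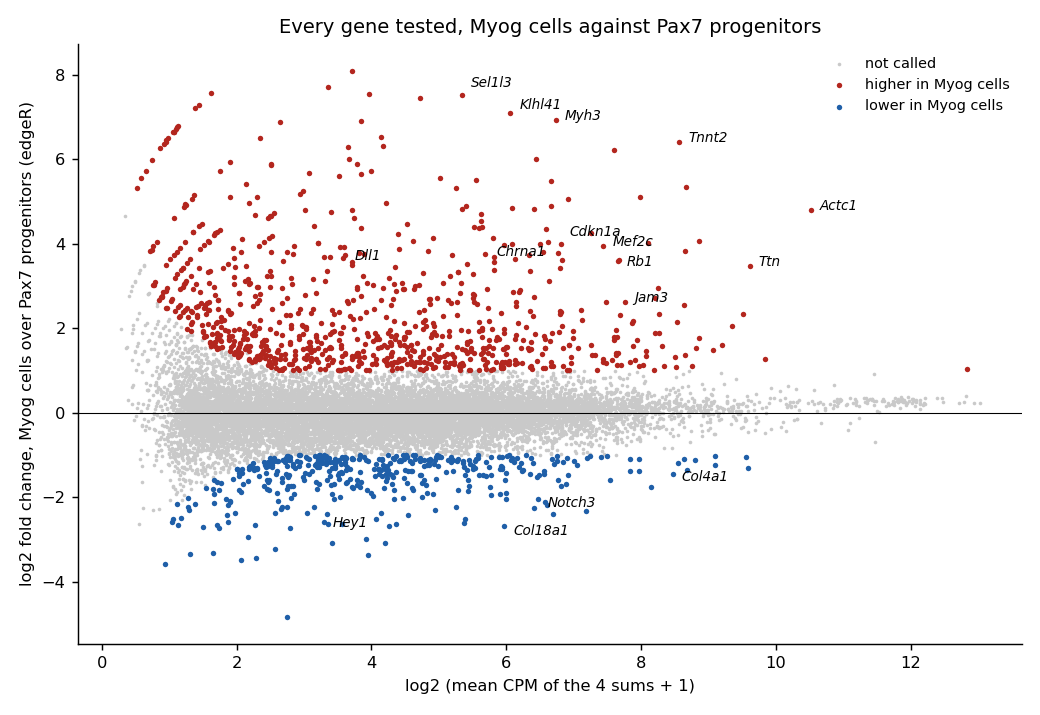
Log2 fold change of Myog cells over Pax7 progenitors (y axis, edgeR) against the log2 of the mean CPM plus 1 (x axis) for the 14258 genes tested, with red points for the 858 genes called higher, blue points for the 410 called lower and grey points for the rest. The genes furthest above 0 at high levels encode parts of the contractile apparatus, with Tnnt2 at 6.40 and Actc1 at 4.80.

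The contractile apparatus made the most uniform group. Of the 42 genes listed and tested, 36 were higher in Myog cells and 0 lower, with a median log2 fold change of 3.39, while 6.02% of all genes tested were higher and their median was 0.0075. Without dividing cells 35 of 40 were higher and 1 lower. Tnnt2 was at 759 CPM in forelimb and 733 CPM in hindlimb Myog cells and at 11.6 and 8.22 CPM in progenitors, a log2 fold change of 6.40 ± 0.14 (SE, adjusted p = 1.72e-25). Actc1, the cardiac actin that embryonic skeletal muscle makes first, was at 2755 and 2881 CPM against 110 and 116 CPM (4.80 ± 0.11, adjusted p = 4.13e-25). Myh3 was at 180 and 238 CPM against 2.71 and 1.05 CPM (6.93 ± 0.19). In each case both Myog sums lay far above both progenitor sums.

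Troponins followed the same order. Tnni1, the slow troponin I, was at 380 and 382 CPM against 6.17 and 5.38 CPM (6.21 ± 0.15), and Tnnc1, the slow and cardiac troponin C, at 164 and 229 CPM against 5.12 and 4.63 CPM (5.49 ± 0.20). The fast troponins were also higher, with Tnnc2 at 4.34 ± 0.19, Tnni2 at 2.35 ± 0.14 and Tnnt3 at 55.1 and 59.0 CPM against 9.78 and 5.53 CPM (3.06 ± 0.18). Tnnt1, the slow troponin T, was already at 267 and 289 CPM in progenitors and at 957 and 1095 CPM in Myog cells (2.05 ± 0.10). The giant proteins titin (Ttn, 3.46 ± 0.11) and nebulin (Neb, 2.96 ± 0.10) were both higher, with Ttn at 1295 and 1539 CPM against 133 and 155 CPM. Klhl41, which stabilises nebulin in thin filaments, was at 119 and 142 CPM against 0.301 and 1.79 CPM (7.09 ± 0.19), and the myosin chaperone Unc45b at 29.9 and 37.0 CPM against 0.301 and 0.598 CPM (6.30 ± 0.29). Des, the muscle intermediate filament, moved least among the 36, at 205 and 209 CPM against 106 and 124 CPM (1.01 ± 0.09). By CPM alone Des was under 2-fold in both libraries. Tpm1 and Tpm3, tropomyosins that non-muscle cells also make, were not called, with log2 fold changes of 0.17 and -0.36.

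Genes of excitation-contraction coupling, which links the membrane signal to calcium release, were higher in 13 of 20 cases and lower in 0, with a median of 1.84, against 6.02% and 2.88% of all genes. Ryr1, the calcium release channel, was at 94.5 and 111 CPM in Myog cells and 36.6 and 32.4 CPM in progenitors (1.73 ± 0.10). Atp2a1, the fast-muscle calcium pump, was at 89.9 and 96.8 CPM against 4.21 and 5.68 CPM (4.39 ± 0.15), while Atp2a2, the pump of slow and cardiac muscle that other cell types also make, was not called (0.15 ± 0.08). Casq2, a calcium store protein, was at 17.9 and 23.1 CPM against 0.602 and 0.299 CPM (5.59 ± 0.33). Cacna1s, the voltage sensor that opens Ryr1, was called but low, at 2.64 and 5.04 CPM against 0.752 and 0.748 CPM.

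At the neuromuscular junction 7 of 13 genes were higher and 0 lower, with a median of 1.27, against 6.02% and 2.88% of all genes, and after thinning 6 of 11 were higher and 1 lower. Chrna1, the alpha subunit of the muscle acetylcholine receptor, was at 202 and 199 CPM against 16.9 and 15.5 CPM (3.79 ± 0.10, adjusted p = 1.52e-23). The subunits Chrnd (2.77 ± 0.22) and Chrng, the fetal gamma subunit (2.92 ± 0.17), were also higher, and Chrnb1 was at 65.8 and 73.8 CPM against 28.6 and 28.9 CPM (1.44 ± 0.11). Musk, the receptor kinase that organises the synapse, was at 72.3 and 95.8 CPM against 18.8 and 23.3 CPM (2.16 ± 0.13). Its adaptor Dok7 was at 70.2 and 65.9 CPM against 6.92 and 8.22 CPM (3.33 ± 0.14). Receptor subunits and both signalling genes stood higher in both libraries.

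Windows of 250 bases before the transcription start are shown for 4 genes, the factor that defines the set and 3 of the genes that differed with it, because myogenin and Myod1 are known to bind E-boxes. The sequences are RefSeq windows of build GRCm38.p6 (mm10), read 5′ to 3′ along the gene, in lower case with each match to CANNTG in capitals. CANNTG reads the same on both strands, and CAGCTG is 1 form of it.
Myog, the rule gene, chr1:134289754-134290003, plus strand: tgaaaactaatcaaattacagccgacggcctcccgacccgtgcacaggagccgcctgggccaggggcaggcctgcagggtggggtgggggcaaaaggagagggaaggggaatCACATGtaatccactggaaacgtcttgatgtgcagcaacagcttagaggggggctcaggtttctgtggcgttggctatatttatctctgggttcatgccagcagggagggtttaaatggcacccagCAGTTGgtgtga
Chrna1, acetylcholine receptor, chr2:73580339-73580588, minus strand: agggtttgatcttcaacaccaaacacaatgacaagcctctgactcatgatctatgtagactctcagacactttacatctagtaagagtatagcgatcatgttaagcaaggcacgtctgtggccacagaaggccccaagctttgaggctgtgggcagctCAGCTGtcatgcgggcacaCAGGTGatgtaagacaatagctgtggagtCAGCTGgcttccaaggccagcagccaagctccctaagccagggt
Chrng, acetylcholine receptor, chr1:87205561-87205810, plus strand: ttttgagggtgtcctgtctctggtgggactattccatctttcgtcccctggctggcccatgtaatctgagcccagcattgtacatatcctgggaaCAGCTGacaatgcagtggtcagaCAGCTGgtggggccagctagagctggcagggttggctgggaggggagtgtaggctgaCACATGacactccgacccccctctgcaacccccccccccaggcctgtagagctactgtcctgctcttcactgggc
Klhl41, thin filament, chr2:69669870-69670119, plus strand: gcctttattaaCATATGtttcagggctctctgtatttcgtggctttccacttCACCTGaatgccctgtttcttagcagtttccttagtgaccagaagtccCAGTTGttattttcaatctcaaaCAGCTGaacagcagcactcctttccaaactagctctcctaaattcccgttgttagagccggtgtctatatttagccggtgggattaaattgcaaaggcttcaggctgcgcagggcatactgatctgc

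Counted from the start of the transcript, the Myog window held CACATG at -138 and CAGTTG at -12. The Chrna1 window held CAGCTG at -92 and -44 and CAGGTG at -73, the Chrng window CAGCTG at -155 and -132 and CACATG at -75, and the Klhl41 window 4 matches, of which the one at -127 was CAGCTG. Over all 32851 windows of this length, 66.2% held CANNTG at least once, 12.2% at least 3 times and 3.84% at least 4 times. Over windows of all genes tested these shares were 57.9%, 7.42% and 2.19%. They were 68.8%, 13.99% and 4.08% for genes called higher in Myog cells and 61.2%, 8.21% and 2.74% for genes called lower. CAGCTG was in 13% of all windows at least once and in 1.26% at least 2 times. It was in 20.05% of the windows found for 606 of the genes called higher in Myog cells, 16.4% of those for 305 of the genes called lower and 12.7% of those for all genes tested. Among contractile genes, 33 of 42 had a window, and 15 of their 38 windows (39.5%) held CAGCTG. These shares are descriptions of the letters, and no binding was measured in these cells.

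Of 27 transcription factors and cofactors tested, 10 were higher and 1 lower, with a median of 0.25, where 6.02% and 2.88% of all genes tested were called. Some genes are in more than 1 list, so the counts of different lists are not separate. Smyd1 is also in the contractile list, Hes6 in the Notch list, and Eya1 and Sox8 in the progenitor list. Heyl is in both the Notch and the progenitor list. The lower genes numbered 2 after thinning and without dividing cells or cells with markers of another type. Mef2c, a MADS-box factor that works with myogenin, was at 253 and 391 CPM in Myog cells and 24.4 and 21.5 CPM in progenitors (3.94 ± 0.14). Its relatives Mef2a (1.90 ± 0.09) and Mef2d (1.25 ± 0.09) differed less. Tead4, a partner of the Vgll2 cofactor, was at 63.8 and 67.5 CPM against 4.81 and 6.13 CPM (3.74 ± 0.15), and Vgll2 at 275 and 279 CPM against 109 and 124 CPM (1.41 ± 0.08). Smyd1, a methyltransferase needed for sarcomere assembly, was at 69.7 and 90.3 CPM against 2.11 and 3.89 CPM (4.89 ± 0.16). Eya1, a transcription cofactor of the progenitor programme, was the member called lower, at 11.3 and 12.7 CPM against 65.3 and 59.2 CPM (-2.22 ± 0.14). The dimer partners of myogenin were not called, with Tcf4 at -0.04 and Tcf12 at 0.29, and neither were the inhibitors Id1 and Id3, both at -0.50.

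Genes of fusion, adhesion and membrane repair, without the 2 fusion genes of the rule, were higher in 5 of 25 cases and lower in 1, against 6.02% and 2.88% of all genes. DESeq2 called 3 higher and 1 lower. The lower genes numbered 3 with at least 2 Myog UMIs, 4 without Scrublet calls, dividing cells or cells with markers of another type, and 5 after thinning, where 4 were higher. Jam3, a junctional adhesion molecule, was at 360 and 369 CPM against 71.6 and 62.2 CPM (2.61 ± 0.09). Cav3, the muscle caveolin, was at 49.0 and 39.0 CPM against 6.02 and 5.98 CPM (3.03 ± 0.16), and M-cadherin (Cdh15) at 156 and 148 CPM against 88.5 and 80.0 CPM (1.02 ± 0.08). By CPM alone Cdh15 was under 2-fold in both libraries. Kirrel, a nephrin-like adhesion molecule, was lower (-1.15 ± 0.15). Integrin beta 1 (Itgb1, -0.21), Rac1 (0.06) and Ncam1 (0.75) were not called.

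Among 22 genes listed for muscle progenitors, 4 were lower and 2 higher, where 2.88% and 6.02% of all genes were, and the median was -0.78 against 0.0075 over all genes. The lower genes numbered 7 or 8 with at least 2 Myog UMIs, after thinning, and without Scrublet calls, dividing cells or cells with markers of another type. Chodl, a C-type lectin of quiescent satellite cells, was at 11.8 and 10.2 CPM in Myog cells and 82.8 and 59.2 CPM in progenitors (-2.52 ± 0.14). Megf10, a receptor known from satellite cells, went the other way, at 356 and 397 CPM against 92.1 and 94.9 CPM (2.17 ± 0.09), and so did the transcription factor gene Sox8 (1.39 ± 0.11).

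In the Notch pathway, through which neighbouring cells keep progenitors undifferentiated, 6 of 23 genes tested were lower and 3 higher, where 2.88% and 6.02% of all genes were. Notch3 was at 29.8 and 32.96 CPM in Myog cells and 146 and 144 CPM in progenitors (-2.05 ± 0.09, adjusted p = 8.13e-18). The target genes Hey1 (-2.52 ± 0.20) and Heyl (-1.05 ± 0.12) and the glycosyltransferase gene Lfng (-1.61 ± 0.17) were lower, as were Hey2 (-2.49 ± 0.66) and Nrarp, a feedback inhibitor of the pathway (-1.87 ± 0.40). The target gene Hes1 (-0.79 ± 0.08) and the other receptors, Notch1 (0.59) and Notch2 (-0.21), were not called. The ligand Dll1 was at 36.4 and 33.7 CPM against 4.36 and 2.84 CPM (3.44 ± 0.19), and the ligands Jag1 (-0.87) and Jag2 (-0.05) were not called. Hes6, which opposes Hes1, was at 153 and 175 CPM against 62.7 and 63.8 CPM (1.53 ± 0.08), and Rbpj, the DNA-binding protein of the pathway, was also higher (1.18 ± 0.08).

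Genes of cell cycle exit were higher in 5 of 18 cases and lower in 0, against 6.02% and 2.88% of all genes. With at least 2 Myog UMIs, after thinning, and without Scrublet calls or cells with markers of another type 1 was lower, and 2 of 17 were without dividing cells. Cdkn1a was at 200 and 215 CPM in Myog cells and 17.8 and 11.2 CPM in progenitors (4.00 ± 0.12, adjusted p = 2.16e-22), and Rb1 at 344 and 391 CPM against 30.8 and 37.4 CPM (3.59 ± 0.09, adjusted p = 1.08e-23). Btg1, an antiproliferative cofactor (1.79 ± 0.08), and the stress gene Gadd45g (1.56 ± 0.10) were higher. Cdkn1c, the imprinted inhibitor p57, was high in both sets, at 9805 and 9084 CPM against 5706 and 4742 CPM (1.02 ± 0.10). By CPM alone Cdkn1c was under 2-fold in both libraries, so its call depends on the scaling of the fit. The endothelial reference held Cdkn1a at 43.5 and 49.0 CPM and Rb1 at 51.3 and 53.5 CPM. Among 28 genes of division and replication only Ccne1, which encodes cyclin E1, was called, and it was lower (-1.03 ± 0.08), with a median of -0.57 over the list. Mki67 had a log2 fold change of -0.76 ± 0.08 and Pcna of -0.81 ± 0.08, both under the size limit. Leaving out cells with a UMI of Mki67 or Top2a gave 13 lower of 21 tested, where 691 of 9634 genes were lower over all. At least 2 Myog UMIs or thinning gave 4 of 28, where 645 of 14230 and 394 of 9855 genes were.

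Energy metabolism had 6 higher of 20 and 0 lower, against 6.02% and 2.88% of all genes, and 3 of 15 after thinning. Among the 6 were Pgam2, the muscle phosphoglycerate mutase, at 43.4 and 58.8 CPM against 3.31 and 4.63 CPM (3.83 ± 0.18), and Ckb, the brain-type creatine kinase (1.90 ± 0.12). Ldha, lactate dehydrogenase A, was not called (0.13 ± 0.08). In the dystrophin complex and basement membrane list, 4 of 21 were higher, on the same background, among them Sgca (1.31 ± 0.19) and Sgcb (1.17 ± 0.11), which encode membrane proteins of the complex, and 4 were lower, all of them genes of the basement membrane. Col4a1, a type IV collagen, was at 186 and 163 CPM against 558 and 504 CPM (-1.44 ± 0.08), and Col4a2, Lamc1 and Lama4 fell between -1.59 and -1.28. Of 35 growth factor genes and receptors, 2 were higher and 2 lower, against 6.02% and 2.88% of all genes. Lower were 4 with at least 2 Myog UMIs, without Scrublet calls or without cells with markers of another type, and 5 of 28 without dividing cells. The 2 lower genes were Igfbp5 at 118 and 119 CPM against 428 and 464 CPM (-1.74 ± 0.09) and Pdgfa, a platelet-derived growth factor (-1.38 ± 0.08). RNA-binding proteins had 3 higher of 21 and 0 lower, on the same background, and 6 higher and 3 lower of 19 without dividing cells. The list was led by Rbm24, a muscle splicing factor, at 470 and 531 CPM against 80.8 and 90.2 CPM (2.71 ± 0.09). Imprinted genes and long noncoding RNAs had 2 higher of 15, Cdkn1c and Neat1, and 0 lower, against 6.02% and 2.88% of all genes. Cdkn1c is also in the list of cell cycle exit. DESeq2, no library block or thinning gave 1 higher, and leaving out dividing cells gave 1 higher and 1 lower. H19 (-0.17) and Igf2 (0.04) were not called.

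**Figure D4:**
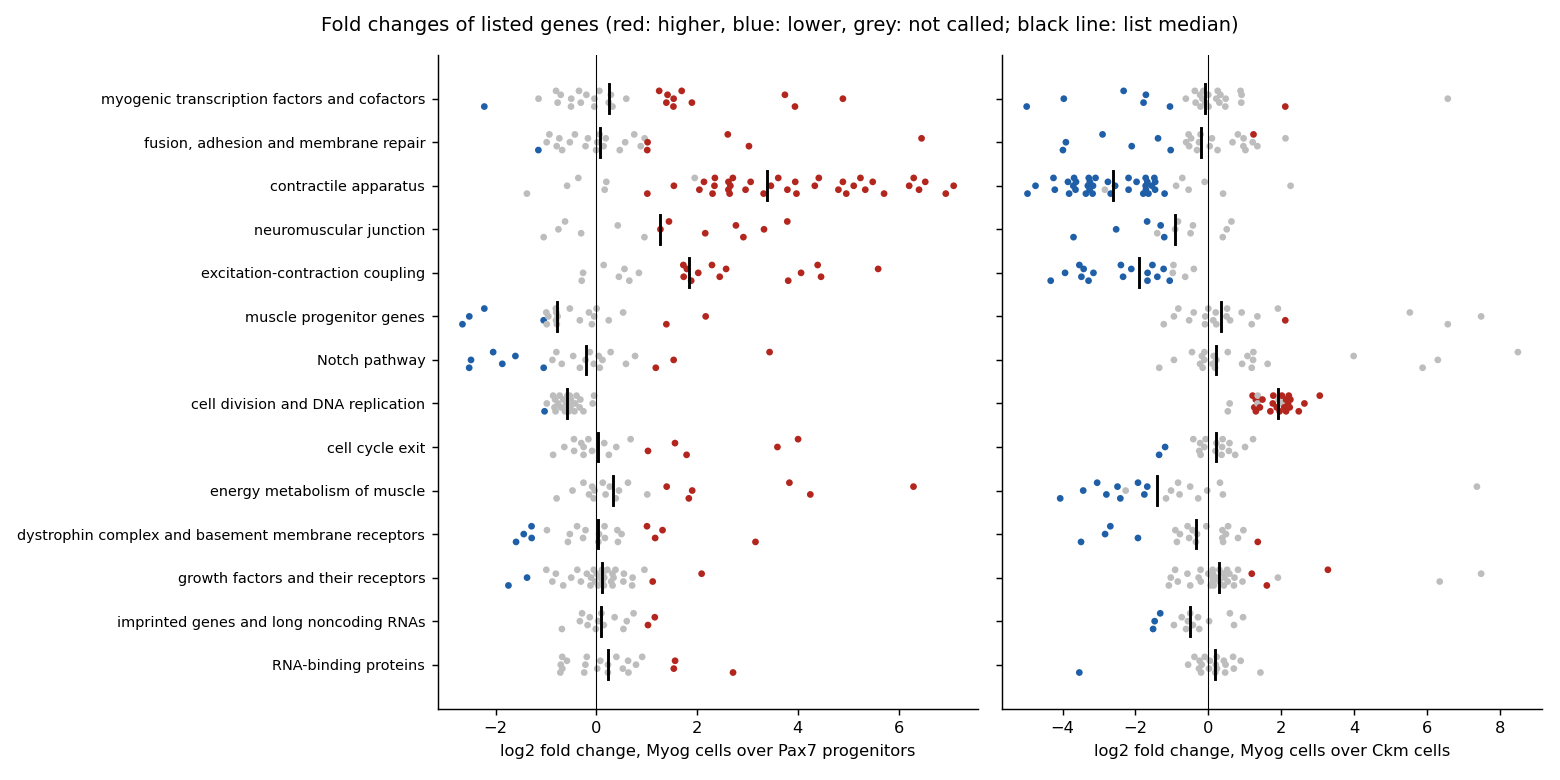
Log2 fold change of Myog cells over Pax7 progenitors (left) and over Ckm cells (right) for the genes of 14 lists, 1 row a list. Each point is a gene, red where called higher, blue where called lower and grey where not called, and the black line is the list's median. Contractile genes had medians of 3.39 on the left and -2.62 on the right, and genes of cell division -0.57 and 1.90.

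Ranked by size at 50 CPM or more, the 12 largest differences in favour of Myog cells included genes outside the sarcomere. Sel1l3 was at 61.0 and 96.1 CPM in Myog cells and at 0.752 and 0.150 CPM in progenitors (7.53 ± 0.25), and Il17b, a cytokine gene, at 52.3 and 70.7 CPM against 1.20 and 1.64 CPM (5.56 ± 0.22). Trim55, a ubiquitin ligase of the sarcomere (5.52 ± 0.17), and the unconventional myosins Myo16 (6.01 ± 0.15) and Myo18b (5.31 ± 0.18) were also higher. Mylpf, the fast regulatory light chain (5.34 ± 0.16), and Myl1 (5.11 ± 0.14) completed the 12 largest. Among those lower, Col18a1, a basement membrane collagen, was at 17.1 and 13.04 CPM against 128 and 88.4 CPM (-2.68 ± 0.13), and the orphan nuclear receptor gene Esrrg at 11.4 and 9.23 CPM against 63.8 and 77.9 CPM (-2.60 ± 0.15). The others were Csgalnact1, Adcy2, Tagln, Fgf12, Zfp536 and Col6a6, with log2 fold changes from -2.38 to -1.94, beside Chodl, Eya1 and Notch3. Col18a1 and Slc35f1 (-2.04 ± 0.14) kept their direction under DESeq2, with adjusted p of 0.115 and 0.293. As single-library log2 ratios of CPM plus 1, Slc35f1 was at -1.71 in forelimb and -2.63 in hindlimb and Tagln at -2.71 and -1.97. On that scale Trim55 was at 5.05 and 4.66, Myo16 at 5.18 and 5.65, Myo18b at 4.58 and 4.61 and Mylpf at 4.75 and 5.47. Sel1l3, at 0.752 and 0.150 CPM in progenitors, was at 6.40 in hindlimb on that scale, below its fitted 7.53. Its fold change rests on few progenitor UMIs.

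Splitting the Myog cells by fusion genes asked how the 1399 cells with a UMI of Mymk or Mymx (818 in forelimb, 581 in hindlimb) differ from the 344 with neither (185 and 159). Myog, which both groups had to hold, was at 1653 and 1622 CPM with a fusion gene and at 299 and 246 CPM without. Pax7 was at 14.6 and 11.9 CPM against 63.6 and 102 CPM. Median depth was 8688 and 9818 UMIs with a fusion gene and 8951 and 10917 UMIs without. Markers of other types differed too. White blood markers were at 81.1 and 48.6 CPM with a fusion gene against 114 and 81.1 CPM without, mesenchyme markers at 1974 and 1270 CPM against 2172 and 1827 CPM, and endothelial markers at 78.4 and 45.6 CPM against 74.6 and 75.5 CPM. Mural markers were at 23.7 and 18.8 CPM against 37.6 and 23.3 CPM, and tendon markers at 37.2 and 31.8 CPM against 55.1 and 35.5 CPM. Chondrocyte markers were at 188 and 157 CPM against 136 and 107 CPM, and red blood markers at 8095 and 6502 CPM against 9866 and 3399 CPM. The part of these markers in the calls was not tested beyond leaving out cells with markers of another type, which gave 669 higher and 429 lower genes. Of 12506 genes tested, 635 were higher (5.08%) and 304 lower (2.43%) in the cells with a fusion gene. The split uses Mymk and Mymx, which the rule also used, and the cells with neither entered through Myod1 alone. The calls describe groups chosen on these genes, and they are no separate evidence that fusion genes mark a later stage. Without the library block 440 and 132 were called, and with DESeq2 339 and 94.

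Contractile genes were higher in 33 of 38 cases and lower in 0, against 5.08% and 2.43% of all genes. Tnnt2 was at 932 and 954 CPM with a fusion gene and 46.6 and 43.6 CPM without (4.56 in log2). Myh3 was at 223 and 307 CPM against 2.50 and 19.3 CPM, so the 2 libraries differed in the cells with neither gene. Klhl41 (5.14 ± 0.18) and Mypn, which encodes the Z-disc protein myopalladin (5.57 ± 0.29), were among the 6 largest differences, with Myo16 (5.38), Il17b (5.13), Tnni1 (5.00) and Myo18b (4.98). As single-library log2 ratios of CPM plus 1, Myo16 was at 3.96 in forelimb and 6.71 in hindlimb, Mypn at 5.09 and 4.49, Il17b at 5.04 and 4.20, Klhl41 at 4.50 and 4.94, and Myo18b at 4.29 and 4.57. Calcium handling had 13 of 19 higher and the neuromuscular junction 7 of 12, with Chrna1 at 235 and 247 CPM against 65.1 and 50.7 CPM. Cdkn1a was at 239 and 273 CPM with a fusion gene and 43.6 and 31.9 CPM without (2.93 in log2), and Rb1 at 391 and 472 CPM against 151 and 140 CPM (1.74).

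Some replication genes were lower in the cells with a fusion gene. Of 28 genes of division and replication, 10 were lower, 18 were not called and 0 were higher, where 2.43% of all genes were lower and 5.08% higher, with a median of -0.82 against 0.0066 over all genes. Ccne1 was at 69.7 and 64.8 CPM with a fusion gene and 275 and 242 CPM without (-1.77 ± 0.09, adjusted p = 1.98e-17). The replication helicase genes Mcm3, Mcm4, Mcm5 and Mcm6 were among the 10, together with Ccne2, Pcna, Tyms, Rrm2 and Aurkb. Notch3 was at 20.9 and 18.8 CPM against 66.1 and 77.0 CPM (-1.66 ± 0.15), and Dll1 at 40.5 and 40.1 CPM against 19.5 and 13.7 CPM (1.45 in log2). Set beside the progenitors, at 252 and 245 CPM of Ccne1 and 285 and 288 CPM of Mki67, the cells with Myog but neither fusion gene held these genes at 275 and 242 CPM and at 280 and 239 CPM. That comparison of levels was not tested. Of the 185 forelimb and 159 hindlimb cells with neither fusion gene, 102 and 97 had at least 2 Myog UMIs, and the others had 1. The levels were not taken over those with at least 2 alone. The other genes with the largest differences in this direction were Col15a1 (-1.91), Zfp536 (-1.80), Tnc (-1.68) and the cell cycle kinase gene Wee1 (-1.57).

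**Figure D5:**
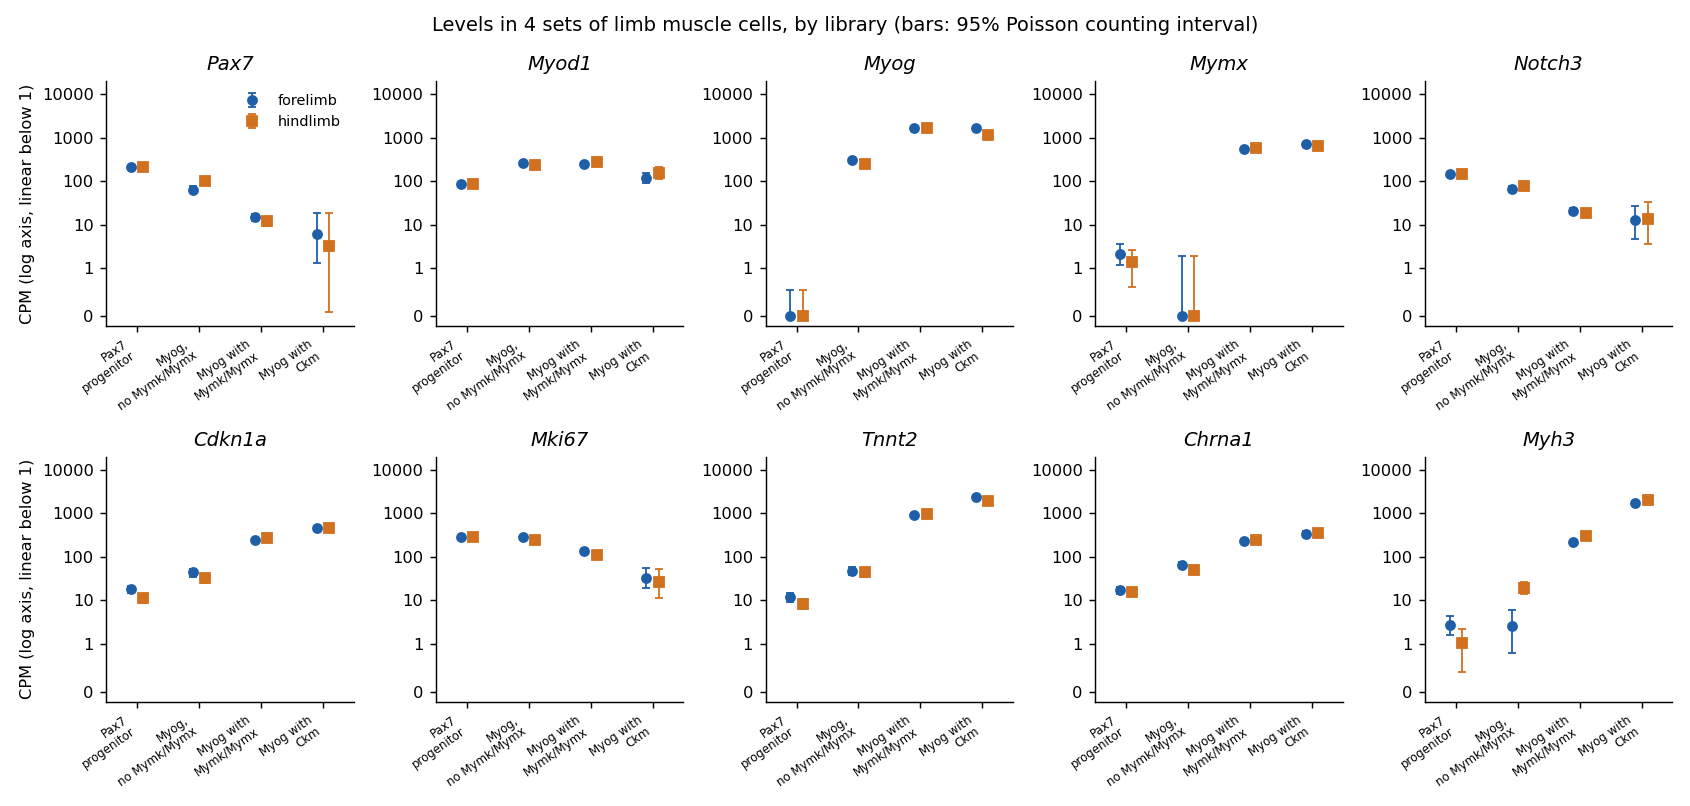
Levels of 10 genes (y axis, CPM, log axis that is linear below 1) in Pax7 progenitors, Myog cells with neither Mymk nor Mymx, Myog cells with either, and Ckm cells, with circles for forelimb and squares for hindlimb. Bars are 95% Poisson counting intervals. Cdkn1a, Tnnt2 and Chrna1 stood higher in each set from left to right, and Notch3 stood lower from the progenitors to the Myog cells with a fusion gene.

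On the other side of the rule, the Ckm cells numbered 35 in forelimb and 20 in hindlimb, with sums of 481254 and 302840 UMIs against 10212761 and 8130045 for the Myog cells. Markers of another type were in 20% and 15% of the Ckm cells. Tendon markers were at 45.7 and 228 CPM there against 40.7 and 32.7 CPM in Myog cells, mural markers at 56.1 and 72.6 CPM against 26.4 and 19.9 CPM, and red blood markers at 4837 and 10857 CPM against 8441 and 5749 CPM. The part of these 3 lists in the calls was not tested. Glial markers were at 54.0 and 13.2 CPM against 12.1 and 9.23 CPM, and leaving out cells with glial, endothelial, white blood, keratinocyte or chondrocyte markers gave 151 higher and 318 lower genes. In the fit of all 3 sets 231 genes were higher in Myog cells than in Ckm cells (1.62% of 14258) and 474 lower (3.32%). Without the library block the counts were 130 and 339, and when cells with a UMI of Mki67 or Top2a were left out of all sets they were 24 and 194.

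Contractile genes were lower in 35 of 42 cases and higher in 0, against 3.32% and 1.62% of all genes, with a median of -2.62. Acta1 was at 115 and 113 CPM in Myog cells and 2955 and 1377 CPM in Ckm cells (-4.25 ± 0.15, adjusted p = 1.38e-19). Csrp3, the muscle LIM protein, was at 2.64 and 4.55 CPM against 129 and 79.2 CPM (-4.99 ± 0.35), and Fabp3, a fatty acid carrier, at 4.99 and 5.17 CPM against 79.0 and 85.9 CPM (-4.07 ± 0.32). Cacna1s was at 2.64 and 5.04 CPM against 76.9 and 62.7 CPM (-4.33 ± 0.38). Dystrophin (Dmd) was at 89.5 and 123 CPM against 985 and 1324 CPM. Mustn1 (-4.29) and the M-band gene Myom2 (-4.21) were also among the 6 largest. After thinning Myom2 was at -3.03 and lost its call (adjusted p = 0.133, edgeR). Tnnt2 (-1.55), Klhl41 (-1.46) and Actc1 (-1.20) were also lower. Rb1 was at 344 and 391 CPM in Myog cells and at 291 and 324 CPM in Ckm cells, and it was not called. Mymk was at 295 and 281 CPM and Mymx at 700 and 644 CPM in Ckm cells, both above the levels in Myog cells.

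Division genes went the other way, with 22 of 28 higher in Myog cells and 0 lower, against 1.62% and 3.32% of all genes. Ccna2, cyclin A2, was at 69.4 and 62.6 CPM against 8.31 and 6.60 CPM (3.06 ± 0.39), and Mki67 at 162 and 140 CPM against 33.2 and 26.4 CPM (2.25). The largest also held the histone gene Hist1h2ae (2.67), Ccnb1 (2.64), the carbonic anhydrase gene Car3 (2.52) and Dock10 (2.30). These values rest on few UMIs in the Ckm sums. Dock10 had 12 and 1 UMIs there and single-library log2 ratios of CPM plus 1 of 1.65 in forelimb and 4.42 in hindlimb. Hist1h2ae had 10 and 1 UMIs and ratios of 2.32 and 4.14, and Ccnb1 had 3 and 4 UMIs and ratios of 3.08 and 1.98. Car3 lost its call without the library block (adjusted p = 0.0883, edgeR). After thinning, Ccna2, Apoe, Hist1h2ae, Ccnb1 and Car3 lost theirs, with adjusted p from 0.0174 to 0.305. Their log2 fold changes were then 9.03, 2.87, 3.29, 2.42 and 2.36. Without cells with a UMI of Mki67 or Top2a, Ccna2, Apoe, Hist1h2ae and Car3 did, with adjusted p from 0.0466 to 0.512. Their log2 fold changes in that fit were 7.12, 4.08, 1.78 and 1.40. The values of 9.03 and 7.12 for Ccna2, against 3.06 in the main fit, come from smaller Ckm sums. Its UMIs were few there, and these values are not read as sizes. Under DESeq2 16 of the 28 division genes were higher, where 117 of all 14258 genes were. When each cell was thinned to 2000 UMIs 8 of the 28 were, where 68 of 9855 genes were. Without cells with a UMI of Mki67 or Top2a, 1 of 21 was, where 24 of 9634 genes were. Apoe, a lipid carrier that macrophages also make, was at 63.1 and 53.3 CPM against 10.4 and 6.60 CPM (2.68 ± 0.39), and its call was lost without cells that carry markers of another type (0.41, adjusted p = 0.757).

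Forelimb and hindlimb Myog cells could only be set side by side, since each limb had 1 library. Over the 3359 genes at 50 CPM or more in either library, the log2 levels had a Pearson r of 0.986 across genes, which are not independent replicates, and a median absolute difference of 0.11. At least 2-fold differences were found for 6 genes higher in forelimb (0.179%) and 5 lower (0.149%). Tbx5, the forelimb factor, was at 12.6 CPM in forelimb (95% Poisson interval 10.5 to 15.0) and 0.738 CPM in hindlimb (0.271 to 1.61) Myog cells, from 129 and 6 UMIs, beside 14.8 and 1.34 CPM in endothelial cells. Pitx1, the hindlimb factor, was at 2.45 and 10.9 CPM, beside 0 and 23.0 CPM in endothelial cells. Tbx4, another hindlimb factor, was at 5.19 (3.89 to 6.79) and 7.26 CPM (5.52 to 9.36), with overlapping intervals. The endothelial values for Tbx5 and Pitx1 were as high as those of the Myog cells or higher in the matching limb, so the levels in Myog cells are not read as expression.

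Among the 11 genes, Itga4, an integrin subunit, was at 43.1 and 98.9 CPM and was found in 246 forelimb and 359 hindlimb cells, and its progenitor levels of 31.9 and 75.5 CPM had the same order. Without cells holding 10 or more UMIs of the gene Itga4 was at 41.1 and 92.7 CPM. Ndst4, a heparan sulfate enzyme, was at 20.6 and 56.1 CPM, with 46.6 and 65.2 CPM in progenitors. Nrg1, the neuregulin ligand, was at 35.9 and 80.9 CPM, with 51.2 and 235 CPM in progenitors, and 16 hindlimb cells held 364 of its 658 UMIs. Without cells holding 10 or more, Nrg1 was at 22.6 and 37.2 CPM. Several of the others were also held by few cells. S100a9, a neutrophil gene, had 411 of its 413 hindlimb UMIs in 1 cell, and Hbb-y, an embryonic globin, 423 of 715. The mast cell genes Tpsb2, Cma1 and Cpa3 were at 61.2, 117 and 100 CPM in forelimb and 13.7, 49.8 and 43.5 CPM in hindlimb. Without the cells that held 10 or more UMIs of the gene, Tpsb2 was at 4.70 and 4.56 CPM, Cma1 at 13.5 and 17.7 CPM and Cpa3 at 8.52 and 9.05 CPM. Hist1h2ap was at 93.0 and 45.9 CPM, and at 78.9 and 45.9 CPM without such cells. Col14a1 was at 69.8 and 33.9 CPM, and at 36.6 and 25.2 CPM without them, under 2-fold. Klf2 was at 78.9 and 37.4 CPM and at 36.5 and 32.8 CPM without such cells. The endothelial reference held Nrg1 at 17.3 and 44.7 CPM, Ndst4 at 2.96 and 4.47 CPM and Hist1h2ap at 60.4 and 40.5 CPM. Col14a1 was there at 131 and 82.3 CPM and Klf2 at 245 and 218 CPM. The limbs thus had the same order there for these genes, and the opposite order for Itga4, at 16.0 and 10.1 CPM. Whether the limb differences belong to Myog cells was not tested.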

How the data were processed

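The authors deposited UMI counts, not normalized, which they made with Cell Ranger 7.0.0 against mm10, from a 10X 3′ v3.1 kit. Whether introns were counted is not given in the sources used here. The 5 libraries held 70554067 to 162335993 UMIs. The members, gene lists and comparisons were chosen with earlier results of these data known.

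Counts were summed per library and set. edgeR 4.0.16 (limma 3.58.1, R 4.3.3) fitted 6 sums (Pax7 progenitors, Myog cells and Ckm cells in 2 libraries, residual df 2, common dispersion 0.0036) or, for the split by fusion genes, 4 sums (residual df 1) with TMM, filterByExpr, the quasi-likelihood test, the library as block and Benjamini-Hochberg adjustment over all genes except Myog, Myod1, Mymk, Mymx, Ckm, Pax7, Myf5, Msc and Fgfr4, which chose the cells. The block is the cell suspension that the sets of a library share, so the pairing comes from the design. Each SE was derived from the fold change and its F statistic. Aldoa was left out because its symbol is on more than 1 row. The fits were tested on simulated data. The endothelial reference had a UMI of Cdh5 and of Emcn or Pecam1 and none of Myog, Pax7 or Ckm. Shares were also computed for cells thinned to 2000 UMIs (Python 3.11.15, scipy 1.17.1). Doublets were called with Scrublet in scanpy 1.11.5 and kept, except in 1 alternative.

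Named genes were the rule's genes and markers, the 12 largest called differences each way against progenitors, and the 6 largest each way in the other tests. The differences had to have the same direction in both libraries and 50 CPM or more in the higher set. Also named were the leading and most abundant genes of each list and those needed to describe a role. Between limbs every gene past the 2-fold limit was named, with Tbx5, Tbx4 and Pitx1. Erythroid and mesenchyme markers were not used to leave out cells. Alternatives were DESeq2 1.42.0, no low-count filter, no library block, at least 2 Myog UMIs, the cell limits of the study, leaving out Scrublet calls, cells with markers of another type or dividing cells, thinning, and a fit without the Ckm sums, which was added after seeing the data. The limit of at least 2 Myog UMIs was not run for the split by fusion genes.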

Additional observations from a re-analysis of the deposited data

How the results depend on the processing

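The 48 differences named by size kept their direction under the alternatives run. Their 96 ratios of single libraries have no test. Those ratios are no separate check, because a gene was named only if both libraries had the same direction. The called genes of the lists (111 against progenitors, 114 against Ckm cells, 102 in the split by fusion genes) did not turn either, though 40 of 1096, 156 of 1009 and 78 of 796 fits lost the call. Over all genes, Cpa3, a mast cell gene seen after its values, turned against Ckm cells with at least 2 Myog UMIs (2.78 in log2 in place of -1.16). Against progenitors the count of higher genes ranged from 583 to 949 over the alternatives (main 858). The count of lower genes was 235 with DESeq2, 645 with at least 2 Myog UMIs and 691 without dividing cells (main 410). The fit without the Ckm sums, chosen after seeing the data, gave 860 and 422. Of Myog cells over Ckm cells, the higher genes numbered 117 with DESeq2, 130 with no library block (no pairing), 68 after thinning, 24 without dividing cells and 151 without cells carrying markers of another type (main 231), and the lower genes 91 after thinning and 194 without dividing cells (main 474). With and without a fusion gene, the higher genes numbered 339 with DESeq2 and 357 after thinning (main 635), and the lower genes 94 with DESeq2, 132 with no library block and 470 without Scrublet calls (main 304). The block changed no other count over all genes by more than 1.5 times. Among lists, with no block 1 growth factor gene and 1 imprinted gene were higher than in progenitors (2 each with it), and in the split 1 progenitor gene was lower (4 with it), 1 growth factor gene was higher (3) and 1 lower (2), 1 dystrophin complex gene was higher (2) and 0 transcription factors were lower (1). Of 443 fits of the 48 differences that have a test, 429 kept their side of the threshold and 14 lost it, 2 against progenitors and 12 against Ckm cells. Contractile genes higher than in progenitors numbered 32 to 36 over all alternatives. The share of Myog cells was 3.38% in forelimb and 2.70% in hindlimb with at least 2 Myog UMIs, 4.52% and 3.61% with the study's limits, and 3.52% in forelimb without Scrublet calls. Between limbs, the 4-fold limit left 1 gene each way, and 2 genes were higher in forelimb without Scrublet calls. The cause of these shifts was not tested. Thinning and leaving out cells reduced the UMIs and genes tested. Lower genes against progenitors still rose from 410 to 691 without dividing cells and to 611 without Scrublet calls. They numbered 557 without cells with markers of another type. The Ckm sums limit the depth of their comparison, and 1 library a limb leaves no test of limb differences.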

Other observations

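Several genes of receptors and signalling that no list held stood with the muscle genes, and were picked after their values were seen. Erbb4, a neuregulin receptor, was at 182 and 216 CPM in forelimb and hindlimb Myog cells and at 16.1 and 25.9 CPM in progenitors (3.42 ± 0.10). Chrm3, a muscarinic acetylcholine receptor gene, was at 141 and 194 CPM against 11.1 and 12.6 CPM (3.98 ± 0.12). Cnr1, the cannabinoid receptor gene, was at 79.4 and 101 CPM against 5.12 and 4.63 CPM (4.36 ± 0.15). In Ckm cells Erbb4 was at 553 and 680 CPM and Chrm3 at 281 and 485 CPM, and both were called lower in Myog cells than there, while Cnr1 was at 62.3 and 129 CPM and was not called.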
